A study of Citrus sinensis with 6 samples.

Results

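The genes described here are those that the annotation of the deposited table places in the glycolysis and gluconeogenesis map of KEGG, a collection of pathway maps, and in none of 8 related maps (carbon fixation, citrate cycle, alpha-linolenic acid, starch and sucrose, galactose, amino sugar and nucleotide sugar, ascorbate, and arginine and proline metabolism). This rule found 47 of the 29875 listed genes, and it left out 70 other genes of the same map. RNA was sequenced from leaves of sweet orange (*Citrus sinensis*) seedlings raised in tissue culture, with 3 libraries from seedlings given 2% NaCl for 14 days and 3 from seedlings given no NaCl (control). According to the methods of the study, a replicate comprised several seedlings. Treated seedlings were exposed to a 2% NaCl solution, and the controls grew in standard medium with no salt added. The methods do not say whether the medium was otherwise the same. The sample titles call the NaCl material leaf and the control material leaf blades with sterile water, while another label field names boron; titles and treatment labels were followed. Leaf material and NaCl thus differ together and cannot be told apart.

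Glycolysis splits sugar phosphates into pyruvate and yields ATP, and in plants it runs both in the cytosol and in the plastid. Cytosolic fructose 6-phosphate can be phosphorylated with pyrophosphate as well as with ATP, by a reversible enzyme known mainly from plants and some microbes. Further down, phosphoglycerate mutase and enolase prepare phosphoenolpyruvate, from which pyruvate kinase makes pyruvate. When oxygen or respiration is short, pyruvate decarboxylase and alcohol dehydrogenase turn pyruvate into ethanol, and lactate dehydrogenase turns it into lactate, so that NAD+ is renewed.

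The table pairs its gene identifiers with no names. Function terms were matched to a fixed list of enzymes and enzyme classes, and 19 of the 47 genes had one. These were 8 for pyruvate kinase, 4 for pyrophosphate-dependent phosphofructokinase, 2 for enolase (phosphopyruvate hydratase) and 1 for phosphoglycerate mutase. A further 2 were for a phosphatase, 1 for acetate-CoA ligase and 1 for a carboxy-lyase. The other 28 genes were grouped by the set of maps that they share. Of these, 9 stand in a set of maps that KEGG uses for alcohol dehydrogenase (glycolysis, pyruvate, tyrosine and fatty acid degradation). Another 1 stands in the set used for lactate dehydrogenase. The list held no term for alcohol dehydrogenase or lactate dehydrogenase, so neither group could match it. Both are called here by their maps. Genes said below to have no function term had none from this list, and other function terms were not matched. A location term for the plastid was given for 9 genes. One for the cytosol or cytoplasm without a plastid term was given for 14, while 24 had neither. Other location terms were not looked for. None of the identifiers matched the RefSeq gene list used here, so neither sequences nor coordinates are given.

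Values are FPKM, that is, fragment numbers corrected for gene length and sequencing depth. A gene entered the test if 3 or more libraries reached 0.5 FPKM, which held for 17285 genes in all and for 40 of the 47. Fold changes are given as NaCl minus control on the log2(FPKM + 1) scale, which understates the change of low genes, with their standard error (SE), and were tested with limma with Benjamini-Hochberg adjustment over the 17285 genes. Called genes have an adjusted p up to 0.05 and a fold change of 1 or more in size on the log2 scale. The depth read from the FPKM steps was 17307079 to 19520980 reads in the NaCl libraries and 14325408 to 17558452 in the control libraries. Tested members had a median of 948 reads per library. On the first principal component, which held 53.7% of the variance, control replicate 2 (9.50) lay between the NaCl libraries (-51.7 to -25.6) and the other controls (51.5 and 66.3). In bulk RNA, fewer cells of a type and less RNA per cell cannot be told apart.

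In summed level and median fold change, the members differed little between NaCl and control leaves, and those of lowest p went in both directions. The members were well expressed, with a median of 20.9 FPKM over the 40 that were tested, beside 10.4 FPKM over all tested genes. The summed level of the 47 genes was 1593, 1557 and 1455 FPKM in NaCl replicates 1 to 3, against 1307, 1588 and 1382 FPKM in control replicates 1 to 3, so the groups overlapped. No member passed both thresholds, while 2.73% of all tested genes did. At the adjusted p alone 1 member rose (1.31% of all tested genes did) and 1 fell (1.93% of all tested genes did). At an unadjusted p of 0.05 from limma, 5 of the 40 had a positive fold change (background 19.1%) and 9 a negative one (background 11.2%). The fold change was positive for 24 of the 40 (background 64.7%) and negative for 16 (background 35.3%). The median was 0.15, beside 0.18 for all tested genes. Scaling the libraries by their upper quartile lowered the median of all genes by 0.14 to 0.04, and the members' median was then 0.01 with 20 positive and 20 negative.

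Among the 12 members of lowest p, 4 had a positive and 8 a negative fold change. In each of the 12 every NaCl library lay on the same side of every control library. These members were ranked on the same libraries, so this separation restates the ranking and adds no support. The groups did not overlap in 18 of the 40 tested members (background 36.1%), 8 with NaCl above (background 23.6%) and 10 with NaCl below (background 12.4%). For a single gene the exact permutation test cannot go below p = 0.1 with 3 libraries against 3.

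**Figure D1:**
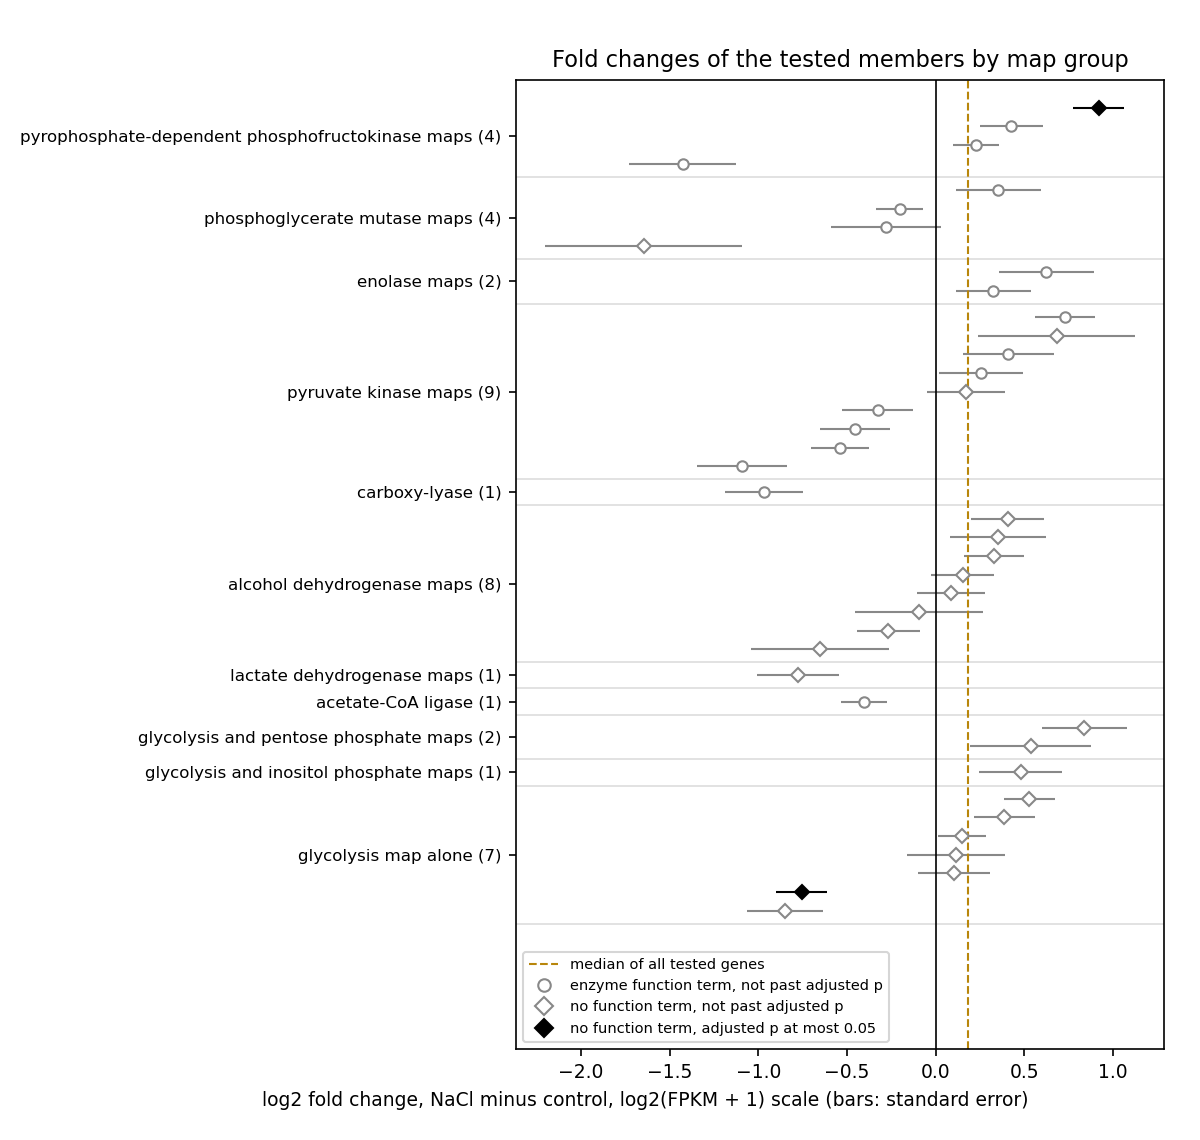
Log2 fold change (NaCl minus control, log2(FPKM + 1) scale, bars are standard errors) of the 40 tested members by map group; circles have an enzyme function term, diamonds have none, filled diamonds passed the adjusted p, and the dashed line is the median of all tested genes. The 2 filled points are at 0.92 and -0.76, and the other members lie on both sides of 0.

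The member that rose belongs to the maps of pyrophosphate-dependent phosphofructokinase but has no function term. Cs_ont_6g012230 had 20.9, 21.4 and 20.3 FPKM in NaCl replicates 1 to 3, against 9.57, 12.1 and 10.1 FPKM in control replicates 1 to 3. The NaCl libraries were nearly level with each other and all above the controls. The means were 20.8 ± 0.559 FPKM in NaCl and 10.6 ± 1.36 FPKM in control (SD, n = 3 each), or 0.92 as log2 fold change (SE 0.14, limma adjusted p = 0.0390). This is a short gene model, with a length of 387 bases implied by the FPKM steps, and it held only 56 to 153 reads per library. On recovered reads with voom weights it missed the threshold (limma adjusted p = 0.0601).

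The 4 genes with a function term for this enzyme, which exchanges phosphate between pyrophosphate and fructose 6-phosphate, did not share a direction. Cs_ont_3g000410 was the most expressed of them, with 92.3, 84.3 and 83.1 FPKM in NaCl leaves, against 72.6, 70.9 and 78.3 FPKM in control leaves. Its groups did not overlap, but the difference was small (log2 fold change 0.22, SE 0.13, limma adjusted p = 0.273). Cs_ont_2g001260 had 49.6, 34.0 and 40.0 FPKM in NaCl leaves, against 28.1, 34.2 and 28.2 FPKM in control leaves (log2 fold change 0.43, limma adjusted p = 0.163), and here NaCl replicate 2 and control replicate 2 were level. The opposite sign was seen for the low gene Cs_ont_2g018470, with 4.51, 2.15 and 2.32 FPKM in NaCl leaves, against 10.2, 6.71 and 11.95 FPKM in control leaves. Every NaCl library of this gene was under every control library, and the log2 fold change was -1.43 (SE 0.30, limma adjusted p = 0.0544). The remaining gene of the enzyme, Cs_ont_2g018590, had 0 reads in every library, which allows up to 3 reads in each library taken alone.

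Enolase and phosphoglycerate mutase, which act in sequence on the way to phosphoenolpyruvate, held the most abundant transcripts of the whole group. The enolase gene Cs_ont_6g007340 had 370, 401 and 320 FPKM in NaCl leaves, against 199, 336 and 193 FPKM in control leaves. Control replicate 2 stood apart from the other controls and was above NaCl replicate 3, so the groups overlapped. The means were 364 ± 41.0 and 243 ± 81.0 FPKM (NaCl and control, SD, n = 3 each), with a log2 fold change of 0.62 (SE 0.27, limma adjusted p = 0.170). A second enolase gene, Cs_ont_5g037680, repeated this pattern of libraries at a lower level, with 23.9, 22.2 and 21.0 FPKM in NaCl leaves, against 14.9, 24.4 and 15.0 FPKM in control leaves (log2 fold change 0.32, limma adjusted p = 0.323). Without control replicate 2 both enolase genes passed the adjusted p, with 0.88 for the abundant gene (limma adjusted p = 0.0254) and 0.55 for the less abundant one (limma adjusted p = 0.0307), while 24.4% of all tested genes passed. Another gene of the enolase maps, with no function term, held at most 7 reads in a library and was not tested.

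The cofactor-independent phosphoglycerate mutase gene Cs_ont_6g012400 had 242, 304 and 219 FPKM in NaCl leaves, against 154, 249 and 201 FPKM in control leaves. The groups overlapped (log2 fold change 0.35, SE 0.24, limma adjusted p = 0.342). Together this gene and the abundant enolase gene made up 38.4%, 45.3% and 37.0% of the members' summed FPKM in NaCl replicates 1 to 3, against 27.0%, 36.9% and 28.5% in control replicates 1 to 3. The highest control share, that of replicate 2, was close to the lowest NaCl share.

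The phosphoglycerate mutase maps also held a member with uneven libraries. A gene with no function term had 14.1, 50.1 and 11.4 FPKM in NaCl leaves, against 74.1, 43.4 and 87.4 FPKM in control leaves. NaCl replicate 2 was above control replicate 2, while the other NaCl libraries were far under the other controls. Its log2 fold change was -1.65 with a SE of 0.55 (limma adjusted p = 0.112). Without NaCl replicate 2 it was -2.28 (limma adjusted p = 0.0478), and this was then the only member past both thresholds (background 0.694%). For the 2 genes of these maps annotated as phosphatases, Cs_ont_1g025340 and Cs_ont_8g007130, the log2 fold changes were -0.20 and -0.28 (limma adjusted p = 0.319 and 0.551), and the remaining gene was too low to test.

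**Figure D2:**
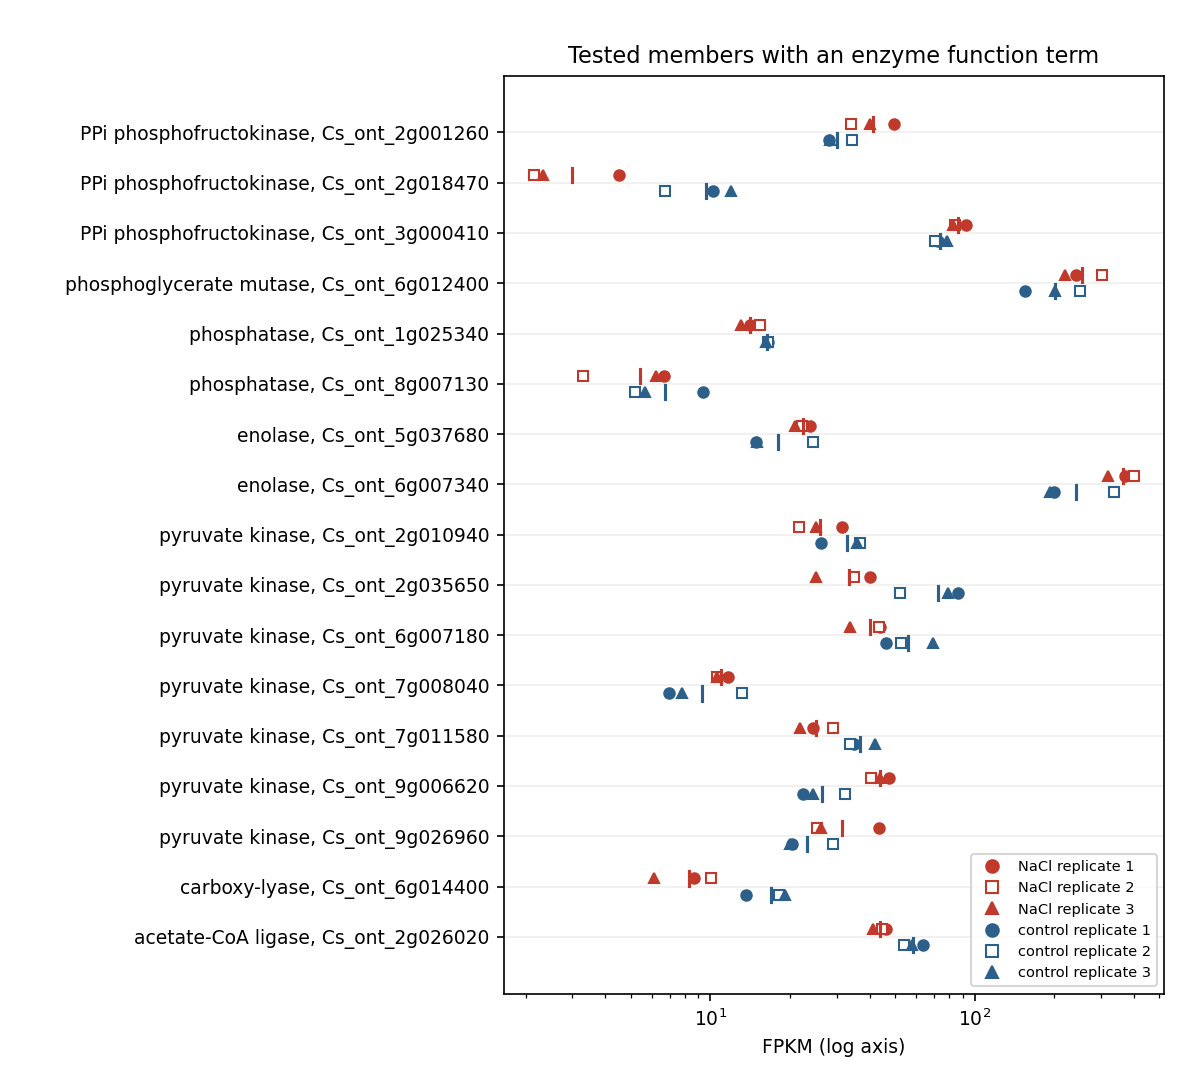
FPKM on a log axis of the 17 tested members with a function term, by library; red is NaCl and blue is control, open squares are replicate 2, and vertical ticks are group means. The enolase gene Cs_ont_6g007340 is the highest at 320 to 401 FPKM in NaCl and 193 to 336 FPKM in control, and Cs_ont_2g018470 is the lowest at 2.15 to 4.51 FPKM in NaCl and 6.71 to 11.95 FPKM in control.

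Pyruvate kinase, which makes pyruvate and ATP from phosphoenolpyruvate, was the largest annotated enzyme group, and its genes differed in sign. Of the 8 genes with the function term 7 were tested, and 0 passed the adjusted p from limma with all libraries (1 higher unadjusted, background 19.1%, and 2 lower, background 11.2%). The most expressed in control leaves, Cs_ont_2g035650, whose location term is cytoplasm, had 40.1, 34.9 and 25.0 FPKM in NaCl leaves, against 86.3, 52.1 and 79.5 FPKM in control leaves. All NaCl libraries were under all controls, and control replicate 2 was the control nearest to them. Its means were 33.4 ± 7.64 FPKM in NaCl and 72.6 ± 18.1 FPKM in control (SD, n = 3 each), or -1.09 as log2 fold change (SE 0.25, limma adjusted p = 0.0610). The gene Cs_ont_9g006620, with a plastid term, went the other way, with 47.6, 40.6 and 43.8 FPKM in NaCl leaves, against 22.5, 32.2 and 24.4 FPKM in control leaves. Its groups did not overlap either, and the log2 fold change was 0.73 (SE 0.17, limma adjusted p = 0.0610). Both genes passed the adjusted p without control replicate 2, as did 24.4% of all tested genes (-1.31 with limma adjusted p = 0.0204, and 0.88 with limma adjusted p = 0.0170).

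The 3 plastid genes differed in sign as well. Cs_ont_7g011580 had 24.4, 29.2 and 21.8 FPKM in NaCl leaves, against 34.9, 33.6 and 42.0 FPKM in control leaves, a log2 fold change of -0.54 (SE 0.16, limma adjusted p = 0.0954). The groups were apart in this gene too. Cs_ont_9g026960 had 43.5, 25.2 and 26.1 FPKM in NaCl leaves, against 20.3, 29.1 and 20.1 FPKM in control leaves, with overlap and a log2 fold change of 0.41 (limma adjusted p = 0.308). Among genes without a plastid term, Cs_ont_6g007180 had 43.6, 43.5 and 33.7 FPKM in NaCl leaves, against 46.0, 52.5 and 69.4 FPKM in control leaves (log2 fold change -0.45, limma adjusted p = 0.174). The NaCl libraries of that gene were all under the controls. The log2 fold changes of Cs_ont_2g010940 and Cs_ont_7g008040 were -0.33 and 0.25 (limma adjusted p = 0.295 and 0.484), and Cs_ont_9g027520 was too low to test.

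Summed over genes, the 5 pyruvate kinase genes without a plastid term had 127, 111 and 94.9 FPKM in NaCl leaves, against 166, 155 and 192 FPKM in control leaves. All NaCl sums were under all control sums. Of the 4 tested genes in these sums, 1 had a positive fold change. The largest difference between group means was that of Cs_ont_2g035650, and sums without this gene were not compared. The 3 plastid genes summed to 115, 95.0 and 91.7 FPKM in NaCl leaves, against 77.7, 94.9 and 86.5 FPKM in control leaves, with the lowest NaCl and the highest control library overlapping. The plastid genes thus made up 47.5%, 46.1% and 49.2% of the pyruvate kinase FPKM in NaCl replicates 1 to 3, against 31.9%, 38.0% and 31.0% in control replicates 1 to 3. This split by location term was made after the values were seen and is given as a description. A further 3 genes stand in the same maps without a function term. In 1 of them, which has a plastid term, the libraries held 8.84, 10 and 5.37 FPKM in NaCl, against 2.63, 9.73 and 3.29 FPKM in control (log2 fold change 0.68, limma adjusted p = 0.321), and control replicate 2 was level with the NaCl libraries.

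**Figure D3:**
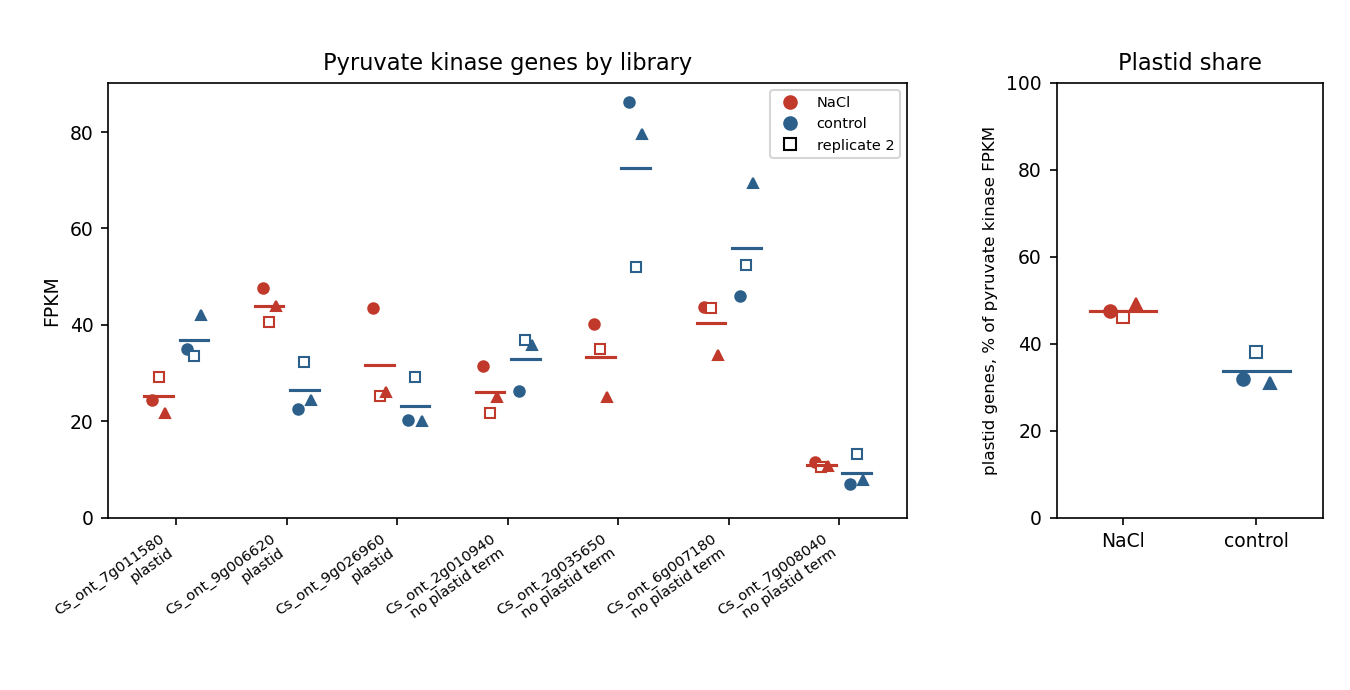
Left, FPKM by library of the 7 tested genes with a pyruvate kinase term (red NaCl, blue control, open squares replicate 2, lines are means). Right, the percent of pyruvate kinase FPKM held by the 3 plastid genes, at 46.1 to 49.2% in NaCl libraries and 31.0 to 38.0% in control libraries.

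On the routes that may lead away from pyruvate, the carboxy-lyase gene Cs_ont_6g014400 had the lowest p. It is annotated to the cytosol and to the response to hypoxia. Pyruvate decarboxylase, the first enzyme of ethanol fermentation, is a carboxy-lyase of the glycolysis map, but the table gives no substrate for this gene. It had 8.65, 10.02 and 6.12 FPKM in NaCl leaves, against 13.6, 18.2 and 19.2 FPKM in control leaves. All NaCl libraries were under all controls, and control replicate 2 was within the range of the other controls. The means were 8.26 ± 1.98 FPKM in NaCl and 17.0 ± 2.99 FPKM in control (SD, n = 3 each), with a log2 fold change of -0.97 (SE 0.22, limma adjusted p = 0.0603). After quantile normalization, which lowered the median of all genes by 0.10, it was -1.15 (limma adjusted p = 0.0492), the only member past both thresholds there (background 2.72%).

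The single gene in the lactate dehydrogenase maps, Cs_ont_5g042040, had 8.85, 6.10 and 6.14 FPKM in NaCl leaves, against 16.3, 9.90 and 12.3 FPKM in control leaves. The groups were apart, with 153 to 404 reads per library, and the log2 fold change was -0.78 (SE 0.23, limma adjusted p = 0.0932). Acetate-CoA ligase, which activates acetate to acetyl-CoA, was represented by Cs_ont_2g026020 with 46.1, 44.5 and 41.1 FPKM in NaCl leaves, against 63.6, 54.1 and 58.1 FPKM in control leaves. This gene had tight replicates and a small difference (log2 fold change -0.41, SE 0.13, limma adjusted p = 0.104).

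Genes that also stand in the alpha-linolenic acid map were left out by the rule. Whether alcohol dehydrogenase genes are among them was not examined. Of the genes kept in the alcohol dehydrogenase maps, none came near the threshold. Of the 8 tested genes, 5 had a positive (background 64.7%) and 3 a negative fold change (background 35.3%). Their log2 fold changes ran from -0.65 to 0.40, with a median of 0.12 and adjusted p from 0.223 to 0.867 (limma). The lower end is set by the pseudocount: that gene had 33, 0 and 5 reads in NaCl libraries, against 35, 17 and 21 in control libraries, and on recovered reads with voom weights its log2 fold change was -2.65 (limma adjusted p = 0.185). Their most expressed gene had 99.5, 64.2 and 122 FPKM in NaCl leaves, against 79.7, 160 and 74.9 FPKM in control leaves. Control replicate 2 was the highest library of all 6 and NaCl replicate 2 the lowest, and the log2 fold change was -0.10 (SE 0.36). Summed over the 9 genes the level was 220, 165 and 250 FPKM in NaCl leaves, against 197, 259 and 178 FPKM in control leaves. Among them, 5 carry closely spaced identifiers; whether these are similar copies that share reads was not tested. In 2 of the 8 the groups did not overlap, both with NaCl above (background 23.6%), with 3.27 ± 0.329 and 2.25 ± 0.621 FPKM for the lower and 14.0 ± 0.707 and 11.1 ± 2.00 FPKM for the higher of them (NaCl and control, SD, n = 3 each). At these replicate errors, log2 fold changes of 0.40 and 0.33 did not pass (limma adjusted p = 0.223 and 0.230).

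**Figure D4:**
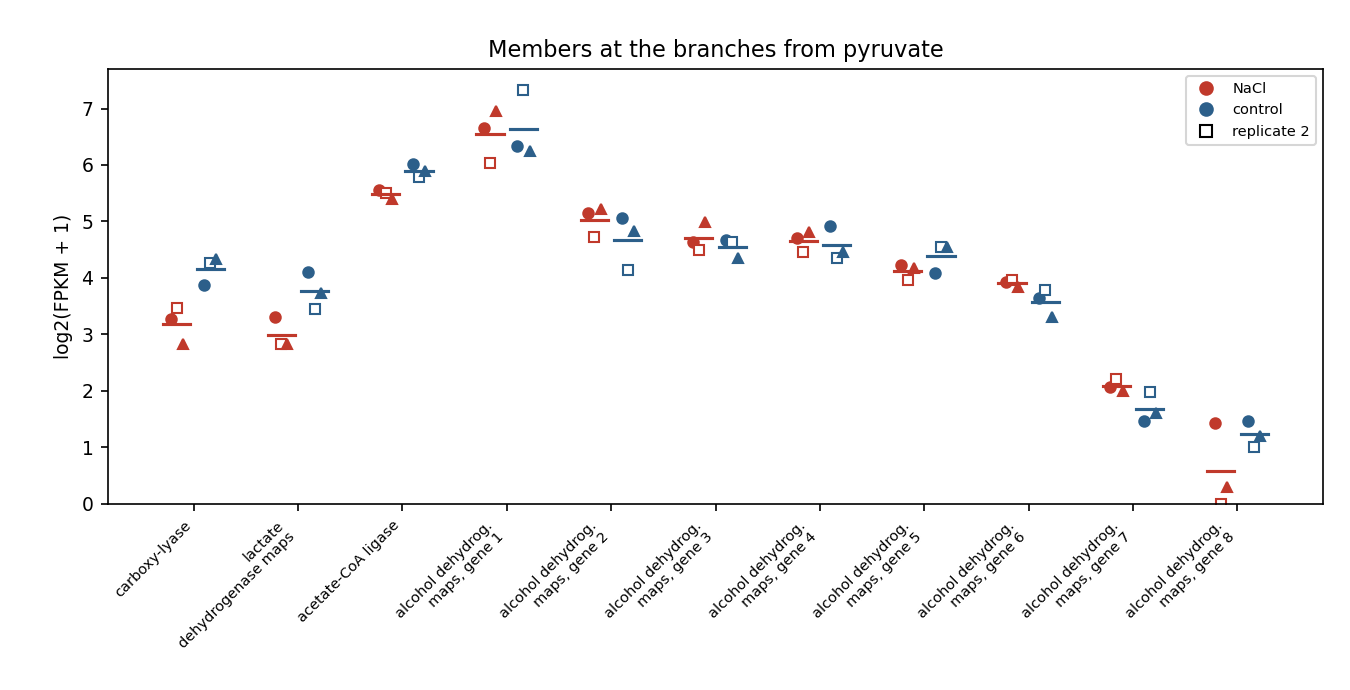
Log2(FPKM + 1) by library of the carboxy-lyase, lactate dehydrogenase map and acetate-CoA ligase genes and the 8 tested genes of the alcohol dehydrogenase maps in falling order of level (red NaCl, blue control, open squares replicate 2, lines are means). The NaCl libraries of the first 3 genes, which are among the 12 members of lowest p, lie under all controls (background 12.4%). In the alcohol dehydrogenase maps they lie above all controls for 2 of the 8 genes (background 23.6%). For the other genes of these maps the groups overlap.

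The member that fell, Cs_ont_2g003960, stands in the glycolysis map alone and has no function term. It had 26.7, 24.3 and 28.2 FPKM in NaCl leaves, against 43.7, 40.7 and 51.7 FPKM in control leaves. Every library was well covered (1387 to 2464 reads) and the groups were far apart. The means were 26.4 ± 1.95 FPKM in NaCl and 45.4 ± 5.66 FPKM in control (SD, n = 3 each), or -0.76 as log2 fold change (SE 0.14, limma adjusted p = 0.0477). This gene and Cs_ont_6g012230 are the only members past the adjusted p, and both missed it with any single library other than control replicate 2 left out (limma adjusted p up to 0.195 and 0.188). Cs_ont_2g003960 also missed it with no filter, pseudocounts of 0.1 and 0.01, robust empirical Bayes and the replicate block (limma adjusted p = 0.0501 to 0.0922), and Cs_ont_6g012230 with no filter and the replicate block (limma adjusted p = 0.0557 and 0.0890). With those libraries left out few genes passed at all, as the whole table gave 0 to 120 called genes.

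The other 6 tested genes of the glycolysis map alone had log2 fold changes from -0.85 to 0.53. At the lower end, a gene had 8.73, 14.5 and 9.84 FPKM in NaCl leaves, against 23.0, 17.7 and 20.3 FPKM in control leaves (limma adjusted p = 0.0700). At the upper end, a gene with very even replicates had 11.1, 10.8 and 11.6 FPKM in NaCl leaves, against 7.43, 8.07 and 6.90 FPKM in control leaves (limma adjusted p = 0.0799). The groups did not overlap for either of them.

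Of the 2 genes shared by the glycolysis and pentose phosphate maps, Cs_ont_4g001640 had 31.0, 34.3 and 25.7 FPKM in NaCl leaves, against 11.7, 22.0 and 17.1 FPKM in control leaves. Its groups were apart (log2 fold change 0.84, SE 0.24, limma adjusted p = 0.0870). In the other gene NaCl replicate 2 stood apart, with 64.5, 27.1 and 67.6 FPKM in NaCl leaves, against 35.6, 32.4 and 32.9 FPKM in control leaves (log2 fold change 0.54, SE 0.34, limma adjusted p = 0.316). The member shared with the inositol phosphate map had 14.6, 10.7 and 11.4 FPKM in NaCl leaves, against 6.73, 11.7 and 7.51 FPKM in control leaves (log2 fold change 0.48, limma adjusted p = 0.212), and only control replicate 2 reached the NaCl range.

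Control replicate 2 bore on these counts. It was the control nearest to the NaCl mean for 26 of the 40 tested members (background 57.6%). Without it 9 members were higher (background 16.5%) and 6 lower (background 7.89%) at the adjusted p from limma, among them the 2 members that passed with all libraries. Past both thresholds were then Cs_ont_6g012230 (1.01), Cs_ont_4g001640 (1.04) and the plastid gene of the pyruvate kinase maps without a function term (1.16) as higher (background 5.3%), and Cs_ont_2g035650 (-1.31) and Cs_ont_2g018470 (-1.64) as lower (background 5.11%).

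**Figure D5:**
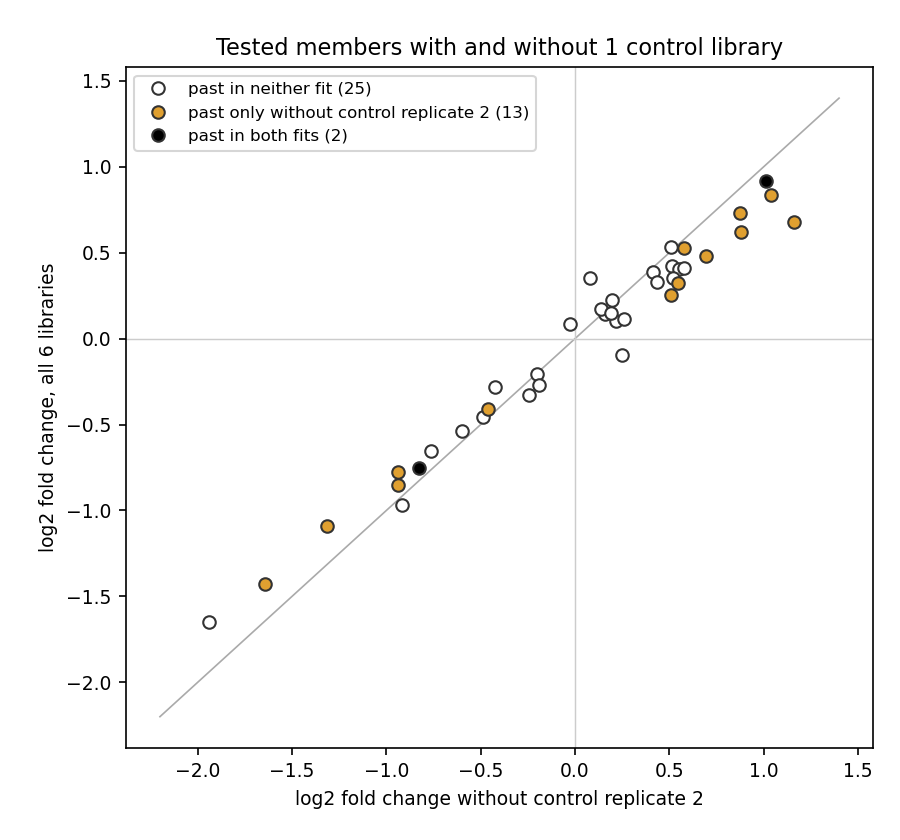
Log2 fold change (NaCl minus control) of the 40 tested members without control replicate 2 (x axis) and with all 6 libraries (y axis); the line marks equal values. The 2 black points passed the adjusted p in both fits, the 13 orange points only without control replicate 2, and the 25 open points in neither.

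Further genes of the pathway were counted in the same way. Of the 70 genes of the glycolysis map that the rule left out, 63 were tested. Among these, 48 had a positive (background 64.7%) and 15 a negative fold change (background 35.3%), with a median of 0.31. At the adjusted p from limma 0 were higher (background 1.31%) and 1 was lower (background 1.93%). At an unadjusted p of 0.05 from limma, 12 of the 63 were higher (background 19.1%) and 7 lower (background 11.2%), and without control replicate 2 the adjusted p was passed by 20 as higher (background 16.5%) and 3 as lower (background 7.89%). The same backgrounds hold for the lists that follow. A gene that stands in several of these maps is counted in each list, so the counts are not separate observations. Of 45 tested citrate cycle genes 0 passed the adjusted p from limma (10 higher and 3 lower unadjusted; 17 higher without control replicate 2), and of 62 tested genes of pyruvate metabolism outside the members 0 did (18 higher and 6 lower unadjusted; 18 higher and 1 lower without control replicate 2). Among 21 tested genes with the term for the response to hypoxia, which include the carboxy-lyase gene, 0 passed the adjusted p from limma, with 3 higher and 5 lower unadjusted. As a check of the tissue, the 67 photosynthesis and antenna genes summed to 7443 to 11285 FPKM in NaCl leaves and 4889 to 9627 FPKM in control leaves, with 7 of them at 0 in every library. Of 54 tested, 48 had a positive fold change and 0 passed the adjusted p from limma (21 higher and 0 lower unadjusted); whether this has a part in the values of the glycolysis genes was not tested.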

How the data were processed

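Total RNA from leaves was sequenced by the submitters, and reads were aligned with HISAT2. The methods of the study name featureCounts for counting, the submitters' processing notes name HTSeq, and the genome release named in the methods differs from the series of the gene identifiers. FPKM, which the authors computed and deposited for every gene in each library, was used; their columns of group means and of their own comparison (fold change, significance, call) were not. Groups follow the sample titles, and replicates are those of the labels. Each limma p-value sets the group difference against the spread among these libraries within a group. That spread is drawn toward a trend over all tested genes.

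Members were found by the KEGG column of the deposited table. The members and lists were chosen with earlier results of these data known. Whole reads were recovered from the FPKM steps: for 100% of the 23073 genes above 0, the values in the 6 libraries stood to each other as whole numbers (tolerance 1e-09). The gene lengths were implied by those steps.

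Log2(FPKM + 1) values of the 3 NaCl and 3 control libraries were fitted in R 4.3.3 by limma 3.58.1, using its trend option and no covariate, over genes that reached 0.5 FPKM in 3 or more libraries. Python 3.11.15 with pandas 2.3.3 read the tables. The test was checked on simulated data. Values by library were given for members past the adjusted p, for the 12 members of lowest p and for the most expressed member of each map group; members named beyond these were chosen after their values were seen. Identifiers were printed where a function term was given, and for 4 members without one. The alternatives were each library left out, the replicate block, no filter, a filter of 1 FPKM, pseudocounts of 0.1 and 0.01, quantile normalization, upper-quartile scaling, robust empirical Bayes, the adjusted p alone, and limma with voom weights on recovered reads.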

Additional observations from a re-analysis of the deposited data

How the results depend on the processing

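With 472 genes called over all tested genes (169 higher, 303 lower), 40 were called with no filter, 308 with a pseudocount of 0.01, 285 with upper-quartile scaling (60 higher, 225 lower), 559 at the adjusted p alone, and 0 to 1800 with 1 library left out (1800 without control replicate 2, 100 without NaCl replicate 1, 120 without NaCl replicate 2, 5 without NaCl replicate 3, 2 without control replicate 1 and 0 without control replicate 3). No member was called with all libraries, while 2 passed at the adjusted p alone, 1 was called after quantile normalization, and 0 to 5 were with 1 library left out. The 1 member higher at the adjusted p gave way to 0 with no filter and with voom on recovered reads, and to 0 to 9 with 1 library left out. The 1 member lower gave way to 0 with no filter, with pseudocounts of 0.1 and 0.01 and with robust empirical Bayes, to 2 after quantile normalization, and to 0 to 6 with 1 library left out. No filter brings more genes, at low levels, into both the fit and the adjustment. The cause of these moves was not tested. The members' median log2 fold change stayed between 0.01 and 0.23 in all settings.

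Same-numbered libraries did not deviate together (correlations of -0.03, 0.03 and -0.07 for numbers 1 to 3), so the numbers were not taken as pairs. With the replicate block 7 genes were called over all tested genes, and 0 members were higher and 0 lower at the adjusted p. In a library taken alone, 0 reads allow up to 3 reads, and this covers counting error only.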
